A study of Homo sapiens with 2 samples.

Results

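The genes described here encode hnRNP and SR proteins, the RNA-binding proteins that steer splice site choice, and they were read in PAR-CLIP libraries of ZC3H7A and ZC3H7B. PAR-CLIP, photoactivatable-ribonucleoside-enhanced crosslinking and immunoprecipitation, places 4-thiouridine in RNA, crosslinks it to a bound protein with UV light and reads each crosslink as a T-to-C conversion. ZC3H7A and ZC3H7B are a pair of CCCH zinc finger proteins, and the title of the series concerns their codon-dependent control of translation and stability. The genes were chosen by name: every symbol of the form HNRNP followed by letters or digits, without pseudogene names, every SRSF symbol, and SON, TRA2A, TRA2B, SRRM1, SRRM2, ARGLU1, PTBP1 and PTBP2. This gave 38 genes of the 10145 listed in either table. The cells were HEK293, a line from human embryonic kidney, and each protein was overexpressed with a Flag/HA tag in an inducible Flp-In T-REx line of them under doxycycline, 1 µg/mL for 24 h. Both groups received 100 µM 4-thiouridine for 16 h and light of 365 nm. Each protein has 1 library, with none from cells without a tagged protein, so nothing was replicated and the proteins are compared without a test.

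hnRNP proteins coat new transcripts and often repress nearby exons, whereas SR proteins carry arginine-serine repeats, bind exonic enhancers and recruit the splicing machinery. Many of them regulate their own messenger RNA by splicing in a poison exon or an intron of the 3' UTR, which exposes the transcript to nonsense-mediated decay. In PAR-CLIP a cluster is a group of overlapping reads with T-to-C conversions. The deposited tables give its number per gene, the reads in it and the region it lies in, and they hold no position or sequence of a cluster.

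For ZC3H7A 51808 clusters with 3779662 reads were listed on 8204 genes, and for ZC3H7B 99805 clusters with 2409465 reads on 9159 genes. On average there were 12.6 reads per distinct read for ZC3H7A and 1.99 for ZC3H7B. The intervals given are exact 95% Clopper-Pearson intervals for counting error only, and they are too narrow for reads that are PCR copies. For ratios of mean reads per cluster they also take the number of clusters as exact, which makes them narrower still. The tagged genes had more reads in their own library, 82704 against 158 for ZC3H7A and 3768 against 1362 for ZC3H7B. Of 6 genes chosen to mark HEK293 cells, LIN28B, VIM, SOX4 and IGF2BP1 were listed for both proteins and PAX2 and NEFM for neither, and none of 4 markers of other cell types was listed. Transcript abundance was not analysed here, so more binding and more transcript cannot be told apart.

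Nearly all of the splicing regulator genes carried clusters of both proteins. Of the 38 genes, 37 were listed in both tables, against 71.1% of all genes in either table. SRSF10, an SR protein active as a splicing repressor, was listed for ZC3H7B alone, with 14 reads in 1 cluster of the 3' UTR. Together the genes held 97675 reads in the ZC3H7A library, 2.58% of its total (2.57 to 2.60%), and 42882 reads in the ZC3H7B library, 1.78% (1.76 to 1.80%). HNRNPA2B1 alone held 25355 of the reads in the ZC3H7A library, and without it the share there was 1.93%. SON held the most reads among them in the ZC3H7B library.

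These genes were heavily covered in comparison with the median gene. Their median was 1357 reads and 14 clusters in the ZC3H7A library, where the median gene had 135.5 reads and 4 clusters. In the ZC3H7B library the median was 681.5 reads and 20 clusters, beside 82 reads and 7 clusters for the median gene. In the ZC3H7A library 23 of 37 ranked in the tenth of genes with the most reads (background 10.0%), and in the ZC3H7B library 19 of 38 did (background 9.99%). The 12 most-read genes of this group had 10 in common between the libraries.

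**Figure D1:**
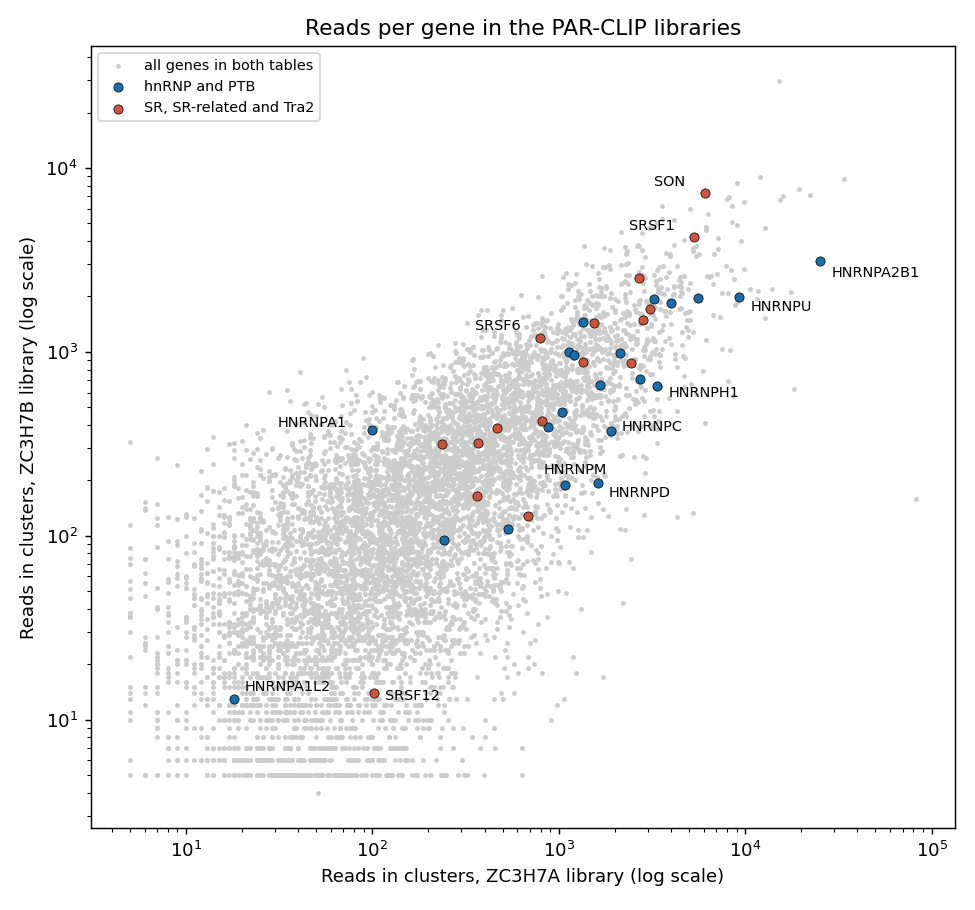
Reads in clusters per gene in the ZC3H7A library (horizontal, log scale) against the ZC3H7B library (vertical, log scale), with 1 point per gene listed in both tables (grey); hnRNP and PTB genes are blue and SR, SR-related and Tra2 genes red. HNRNPA2B1 lies far to the right with 25355 and 3127 reads, and SON is the highest coloured point with 6053 and 7308.

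To set the proteins side by side, reads in the ZC3H7B library were divided by those in the ZC3H7A library for each of 7168 genes that both tables list and that have 20 reads or more in all, and the log2 ratio was scaled so that the median gene stood at 0. The 37 genes compared had a median log2 ratio of -0.62 (range -2.57 to 2.41), with 24 below 0 and 13 above. Only a gene with its whole interval beyond 2-fold counts as higher below. In the ZC3H7A library 10 of 37 were higher (background 18.0% of all genes compared), in the ZC3H7B library 1 was higher (background 18.2%), and 26 were neither. Without the 24 genes that have a copy of the same name, 2 of 14 were higher in the ZC3H7A library, a share no larger than the background. That background is still over all genes compared, with copied genes kept in. The 21 hnRNP and PTB genes had a median of -0.85, with 8 higher for ZC3H7A and 1 for ZC3H7B. The 16 SR, SR-related and Tra2 genes stood at 0.02, with 2 higher for ZC3H7A and 0 for ZC3H7B. The difference between these groups was not tested.

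**Figure D2:**
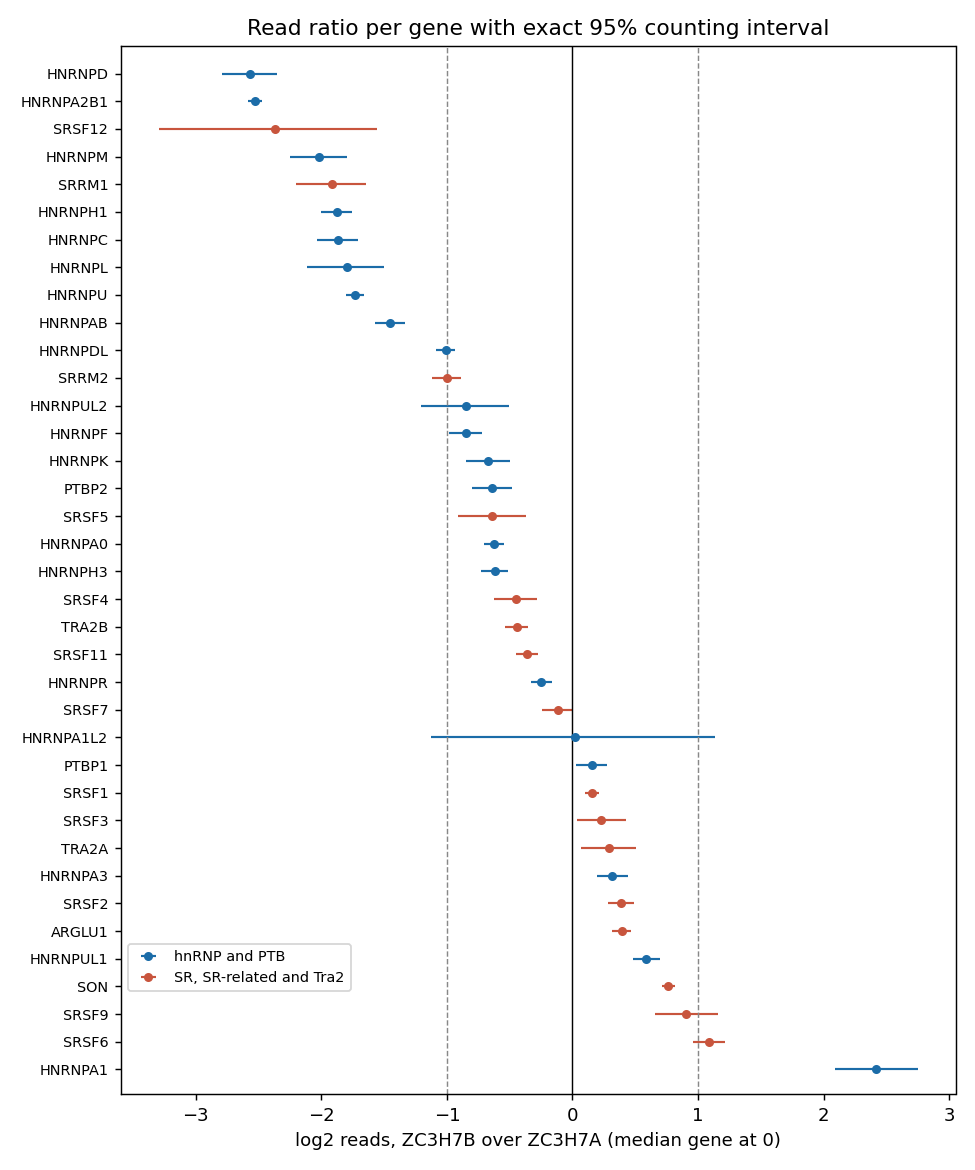
Log2 ratio of reads, ZC3H7B over ZC3H7A with the median gene at 0 (horizontal), for each of the 37 genes compared (vertical, ordered); points are ratios, bars exact 95% counting intervals, dashed lines 2-fold. The ratios run from -2.57 for HNRNPD to 2.41 for HNRNPA1, and 8 of the 10 genes wholly beyond the left dashed line are hnRNP genes.

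Among the hnRNP A/B proteins, which bind A- and U-rich or UAG-bearing RNA and often repress exons, the genes spread over the whole range. HNRNPA2B1 encodes hnRNP A2 and its B1 isoform, known for RNA transport and for reading of m6A-marked RNA. It held 25355 reads in 21 clusters for ZC3H7A, or 0.671% of the library (0.663 to 0.679%), where it ranked 3 by reads. For ZC3H7B it held 3127 reads in 28 clusters, or 0.130% (0.125 to 0.134%), and ranked 55. It was therefore 5.76-fold higher in the ZC3H7A library after scaling, at a log2 ratio of -2.53 (-2.58 to -2.47). By clusters, scaled to the median gene as well, its ratio was -0.51 (-1.38 to 0.38). Each distinct read of it was counted 21.3 times for ZC3H7A and 2.48 times for ZC3H7B, and by distinct reads (1191 and 1262) the ratio was -1.97 (-2.09 to -1.86).

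HNRNPD, which encodes the AU-rich element decay factor AUF1, had the lowest ratio. It held 1618 reads for ZC3H7A and 194 for ZC3H7B, with 11 clusters in each, at a log2 ratio of -2.57 (-2.79 to -2.35). Its close relative HNRNPDL held 5577 and 1968 reads and stood at -1.01 (-1.08 to -0.94), on the 2-fold line. HNRNPAB, which encodes the CArG-box binding factor of the same subgroup, held 2724 and 707 reads and stood at -1.45 (-1.57 to -1.33). The intronless gene HNRNPA0, a regulator of AU-rich messages, held 4004 and 1848 reads at -0.62 (-0.70 to -0.54). Of all 8 genes of the hnRNP A/B type, 3 were higher for ZC3H7A (background 18.0%), namely HNRNPA2B1, HNRNPD and HNRNPAB. In the ZC3H7B library 1 was higher (background 18.2%), and 4 were neither.

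HNRNPA1, the best known splicing repressor of the family, went the other way from HNRNPA2B1. It held 99 reads in 2 clusters for ZC3H7A and 375 reads in 16 clusters for ZC3H7B, and its log2 ratio of 2.41 (2.09 to 2.75) was the highest of the group, at 5.33-fold. With 9 distinct reads for ZC3H7A and 198 for ZC3H7B the ratio was 2.40 (1.45 to 3.55), and by mean reads per cluster it was 0.39 (0.07 to 0.72), no longer beyond 2-fold. HNRNPA3 held 1133 and 1002 reads at 0.32 (0.19 to 0.44). HNRNPA1L2, a retrocopy of HNRNPA1, held 18 and 13 reads, too few to place. HNRNPA1 has many near-identical copies in the genome, and reads are uncertain between them.

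Among the other hnRNP genes, those of HNRNPU, HNRNPC, HNRNPH1, HNRNPL and HNRNPM had more of the reads of the ZC3H7A library. HNRNPU, a scaffold of nuclear RNA and chromatin, held 9313 reads in 36 clusters for ZC3H7A and 1989 reads in 42 clusters for ZC3H7B, at -1.73 (-1.80 to -1.66). HNRNPM, a binder of GU-rich RNA, held 1079 and 189 reads at -2.02 (-2.25 to -1.80). HNRNPH1, which binds G-rich runs, held 3382 and 654 reads at -1.88 (-2.00 to -1.76). HNRNPC, which binds uridine tracts, held 1907 and 371 reads at -1.87 (-2.03 to -1.71), and HNRNPL, which binds CA repeats, 534 and 109 at -1.80 (-2.11 to -1.50). Each of these 5 genes had an interval beyond 2-fold.

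For HNRNPH1 and HNRNPC that call depended on how reads were counted. Each distinct read of HNRNPH1 was counted 24.7 times for ZC3H7A, and of HNRNPC 23.8 times, the most of the group. With distinct reads both stood at -0.83, with intervals that crossed 2-fold. HNRNPU, HNRNPM and HNRNPL kept intervals beyond 2-fold with distinct reads, at -1.43, -1.51 and -1.89.

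The rest of the hnRNP genes lay within or across 2-fold. HNRNPR, which takes part in RNA transport and processing, held 3247 and 1944 reads at -0.25 (-0.33 to -0.17). HNRNPF and HNRNPH3, relatives of HNRNPH1, stood at -0.85 and -0.62, and the poly(C)-binding gene HNRNPK at -0.67. The pair of paralogs PTBP1 and PTBP2, repressors that bind pyrimidine tracts and of which PTBP2 is the neural form, stood at 0.15 (0.03 to 0.28) and -0.64 (-0.80 to -0.48). HNRNPUL1, a relative of HNRNPU, held 1357 and 1451 reads at 0.59 (0.48 to 0.70), and HNRNPUL2 241 and 95 at -0.85 (-1.21 to -0.50). By reads the intervals of PTBP1 and PTBP2, and of HNRNPUL1 and HNRNPUL2, lay apart. By distinct reads they overlapped, at -0.03 (-0.33 to 0.27) for PTBP1 and -0.14 (-0.54 to 0.27) for PTBP2, and at 0.31 (0.04 to 0.59) for HNRNPUL1 and -0.47 (-1.26 to 0.39) for HNRNPUL2. Reads on HNRNPK are uncertain too. Pseudogene rows named HNRNPKP1 and HNRNPKP4 held 245 and 218 reads in the ZC3H7A library, beside 875 on HNRNPK. How reads were assigned between them was not analysed here.

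Most classical SR genes had read ratios within 2-fold of that of the median gene. SRSF1, the prototype SR protein and a proto-oncogene, held 5336 reads in 32 clusters for ZC3H7A and 4224 reads in 17 clusters for ZC3H7B, at 0.16 (0.10 to 0.21). It ranked 61 and 29 by reads. It had fewer clusters for ZC3H7B, whereas 73.8% of genes listed in both tables had more there. In the group as a whole 26 of 37 genes had more clusters for ZC3H7B, 7 had fewer (background 14.6%) and 4 had equal numbers.

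SRSF6 and SRSF9 had the highest ratios among the SR genes. SRSF6, an SR protein with a pair of RNA recognition motifs, held 792 reads in 17 clusters and 1196 reads in 23 clusters, at 1.09 (0.96 to 1.22). SRSF9, a short member of the family, held 237 reads in 4 clusters and 316 reads in 16 clusters, at 0.91 (0.66 to 1.16). Neither interval lay wholly beyond 2-fold, although that of SRSF6 did when libraries were scaled to total reads. SRSF12, a repressor of splicing, had the lowest ratio of the SR genes, with 102 reads in 2 clusters and 14 reads in 1 cluster, at -2.37 (-3.29 to -1.56).

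The other SR genes lay between these. SRSF11, an SR protein linked to U2AF, held 3071 and 1700 reads at -0.36 (-0.45 to -0.27). SRSF2, SRSF3 and SRSF7 stood at 0.39, 0.23 and -0.12, and SRSF4 and SRSF5 at -0.45 and -0.64. SRSF3 had 3 clusters for ZC3H7A and 20 for ZC3H7B, and its read sums of 464 and 387 therefore rested on 155 and 19.4 reads per cluster.

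SON led the SR-related genes, and with it the group in the ZC3H7B library. SON is a large scaffold of nuclear speckles that is needed for splicing of weak introns. It held 6053 reads in 74 clusters for ZC3H7A, where it ranked 54, and 7308 reads in 78 clusters for ZC3H7B, where it ranked 6. Its share was 0.160% (0.156 to 0.164%) and 0.303% (0.296 to 0.310%), and its log2 ratio 0.76 (0.72 to 0.81), higher in the ZC3H7B library but within 2-fold.

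Its relatives spread to both sides. SRRM1, a coactivator that bridges SR proteins and the spliceosome, held 681 and 128 reads at -1.92 (-2.20 to -1.64). With 7 clusters in each library, its cluster ratio, scaled to the median gene, was -0.93 (-2.67 to 0.81). With distinct reads it stood at -1.43 (-2.00 to -0.85), with an interval that crossed 2-fold. SRRM2, a speckle scaffold, held 2448 and 868 reads, with an interval of -1.12 to -0.89 across 2-fold, and by distinct reads it lay beyond 2-fold at -1.25 (-1.50 to -1.01). ARGLU1, a coactivator rich in arginine and glutamate, held 2702 and 2518 reads at 0.39 (0.31 to 0.47). The Tra2 genes, whose proteins bind GAA-rich enhancers, stood at -0.44 (-0.54 to -0.35) for TRA2B, with 2835 and 1481 reads, and 0.29 (0.07 to 0.51) for TRA2A, with 369 and 320.

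The measure taken per gene set how many of these differences stood. By distinct reads 8 of 37 genes were higher for ZC3H7A (background 10.1%) and 1 for ZC3H7B (background 7.28%), and the median was -0.39. Of the 11 genes counted by reads, 8 were counted the same way by distinct reads. By number of clusters 0 genes were counted in either direction (backgrounds 0.223% and 0.321%) and the median was -0.60. By mean reads per cluster the median was -0.00, with 5 higher for ZC3H7A (background 4.65%) and 6 for ZC3H7B (background 6.18%), and 4 of the 11 genes were counted the same way. The 5 were HNRNPA2B1, HNRNPD, HNRNPC, HNRNPH1 and SRSF3, and the 6 were SRSF1, SON, SRSF6, PTBP1, HNRNPUL1 and SRSF2. The intervals behind these calls leave out the counting error of clusters and are too narrow. HNRNPA2B1 and HNRNPD were thus higher in the ZC3H7A library by reads, by distinct reads and by reads per cluster.

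**Figure D3:**
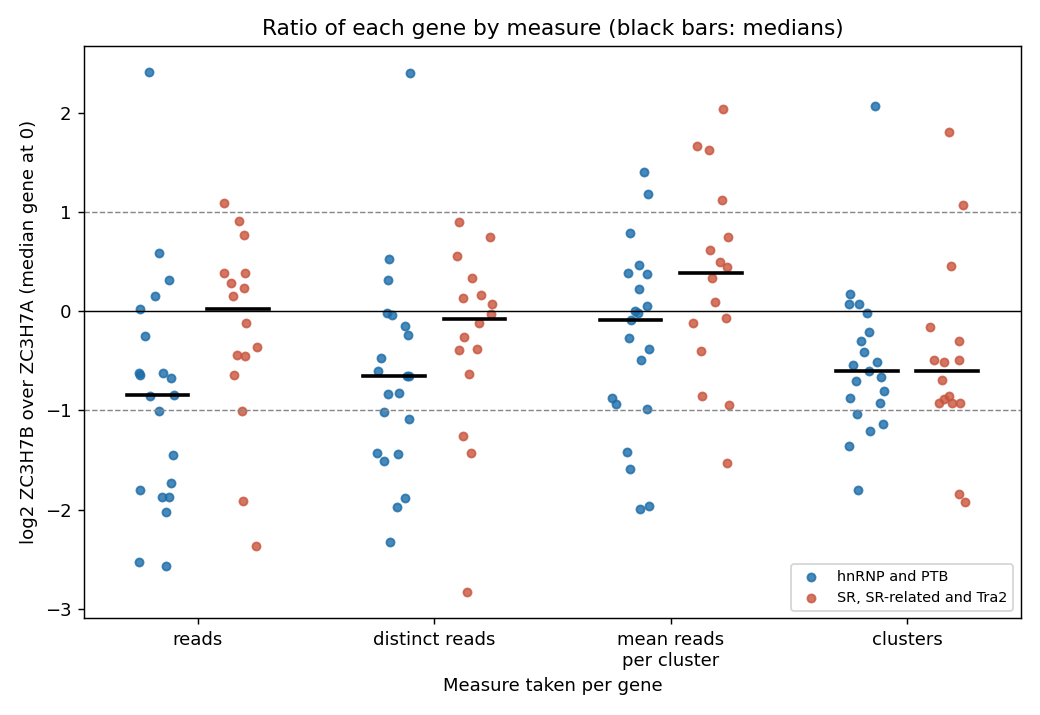
Log2 ratio of ZC3H7B over ZC3H7A (vertical, median gene at 0, dashed lines 2-fold) by reads, distinct reads, mean reads per cluster and clusters, with 1 point per gene compared and black bars for medians. The hnRNP and PTB genes have medians of -0.85, -0.65, -0.08 and -0.60 and the SR, SR-related and Tra2 genes 0.02, -0.07, 0.39 and -0.60.

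Pooled over these genes, coding sequence held a larger share of the clusters of ZC3H7A than of ZC3H7B, and the pooled shares lay above those of all genes. For ZC3H7A coding sequence held 322 of 609 clusters, 52.9% (48.8 to 56.9%), where all genes had 42.7%. For ZC3H7B it held 261 of 746, 35.0% (31.6 to 38.5%), where all genes had 29.6%. The 3' UTR held 191 clusters for ZC3H7A, 31.4% (27.7 to 35.2%), beside 39.8% over all genes, and 329 for ZC3H7B, 44.1% (40.5 to 47.7%), beside 55.8%. SON holds 74 and 78 of these clusters, and without it the coding shares were 49.0% (44.7 to 53.3%) and 32.5% (28.9 to 36.2%), of which the second covers the 29.6% of all genes. The pooled shares differed between roles. On the SR-related and Tra2 genes 110 and 89 clusters were coding, 71.9% and 50.0%. Of these, SON held 60 and 44 and SRRM2 29 and 29, so the pooled shares rested largely on these genes. SRRM1 had coding shares of 100% and 42.9%, TRA2A 40.0% and 35.3%, ARGLU1 38.5% and 10.0%, and TRA2B 29.4% and 21.7%. On the classical SR genes coding sequence held 38.1% (29.6 to 47.2%) and 23.5% (17.2 to 30.7%). On the hnRNP A/B type it held 35.8% (27.3 to 44.9%) and 20.4% (14.3 to 27.7%). These values are below the shares of all genes, but only the interval of the hnRNP A/B type for ZC3H7B lay wholly below.

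Within single genes the coding share was almost always larger for ZC3H7A. Of 34 genes with at least 3 clusters in both libraries, 31 had a larger coding share for ZC3H7A (background 67.8%), 2 for ZC3H7B (background 22.8%), and HNRNPA3 had 0 coding clusters in each. Subtracting the ZC3H7A share from the ZC3H7B share gave a median of -13.8 percentage points, beside -10.0 over all such genes. Among the 26 genes with at least 10 clusters in both, 24 had a larger coding share for ZC3H7A (background 77.8%) and HNRNPAB alone for ZC3H7B (background 18.7%), and the median difference was -12.1 points, beside -9.65. The 3' UTR share was larger for ZC3H7B in 26 of 34 genes (background 69.2%) and for ZC3H7A in 7 (background 18.2%), and in 21 (background 76.9%) and 5 (background 18.2%) of the 26. These genes are not independent samples, and the direction is the one seen over all genes.

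**Figure D4:**
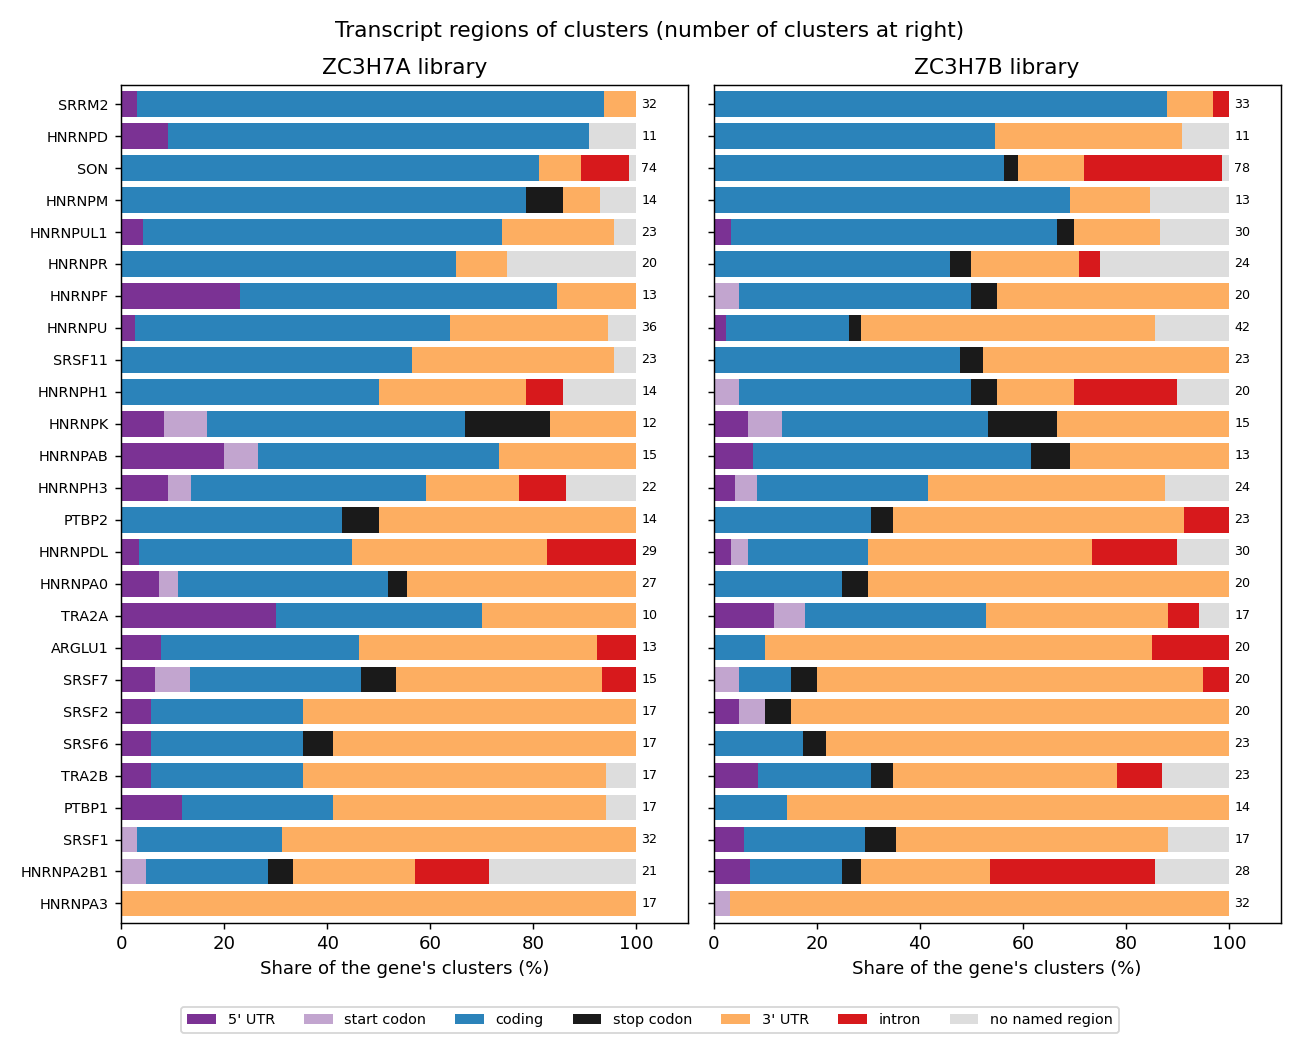
Share of each gene's clusters by transcript region (horizontal, percent) for the 26 genes with at least 10 clusters in both libraries (vertical), in the ZC3H7A library at left and the ZC3H7B library at right; the number of clusters stands at the end of each bar. Blue coding segments are shorter at right for 24 of the 26 genes, HNRNPA3 is 3' UTR in nearly its whole length, and SON and HNRNPA2B1 have wider red intron segments at right.

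HNRNPU had the largest shift among the genes with at least 10 clusters in both libraries. Coding sequence held 22 of its 36 clusters for ZC3H7A, 61.1% (43.5 to 76.9%), and 10 of 42 for ZC3H7B, 23.8% (12.1 to 39.5%), and the 3' UTR held 11 and 24. These intervals do not overlap, but HNRNPU was picked for its shift, and the intervals treat clusters of the same transcript as independent. HNRNPAB was the gene with the largest shift the other way, where coding clusters numbered 7 of 15 and 7 of 13, 46.7% (21.3 to 73.4%) and 53.8% (25.1 to 80.8%), intervals that overlap widely. SRSF2 had 5 of 17 coding clusters for ZC3H7A and 0 of 20 for ZC3H7B, where 17 lay in the 3' UTR. All 5 clusters of SRSF4 and all 7 of SRRM1 were coding for ZC3H7A, beside 7 of 13 and 3 of 7 for ZC3H7B. ARGLU1 had 5 of 13 and 2 of 20, and SRSF7 had 5 of 15 and 2 of 20.

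Some genes kept the same region in both libraries. HNRNPA3 had 17 of 17 clusters in the 3' UTR for ZC3H7A and 31 of 32 for ZC3H7B. SRRM2 had 29 of 32 and 29 of 33 in coding sequence, HNRNPUL1 16 of 23 and 19 of 30, and HNRNPM 11 of 14 and 9 of 13. In SRSF1 the 3' UTR held the most clusters in both libraries, 22 of 32 and 9 of 17, but its share was 15.8 points lower for ZC3H7B. That was the largest fall in 3' UTR share among the 34 genes with at least 3 clusters in both. Among the genes with at least 10 clusters in both, SRRM2 thus had the largest coding share for each protein, and HNRNPA3 had none.

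Introns held a larger share of these genes' clusters for ZC3H7B. They held 22 of 609 clusters for ZC3H7A, 3.61% (2.28 to 5.42%), below the 6.18% of all genes, and 61 of 746 for ZC3H7B, 8.18% (6.31 to 10.4%), above the 6.13% of all genes. With 7 and 21 of them on SON, the shares without it were 2.80% and 5.99%. The value for ZC3H7B above that of all genes therefore rested on SON. An intron cluster was present on 9 of 37 genes for ZC3H7A (background 18.7%) and 14 of 38 for ZC3H7B (background 21.5%). Within genes the intron share was larger for ZC3H7B in 10 of 34 (background 19.7%) and for ZC3H7A in 4 (background 17.1%), and in 9 (background 25.0%) and 3 (background 20.1%) of the 26 with at least 10 clusters in both.

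Most intron clusters lay on a few genes. SON, HNRNPA2B1, HNRNPDL and SRSF9 were the genes with at least 5 in either library, and they held 15 of 22 for ZC3H7A and 43 of 61 for ZC3H7B. SON had 7 and 21, with coding clusters of 60 and 44. HNRNPA2B1 had 3 of 21 and 9 of 28, HNRNPDL 5 of 29 and 5 of 30, and SRSF9 0 of 4 and 8 of 16. HNRNPH1 had 1 and 4, and ARGLU1 1 and 3. Among genes with at least 10 clusters, 8 of 27 had any in introns for ZC3H7A (background 31.6%) and 12 of 31 for ZC3H7B (background 32.5%), and 2 of 27 had 5 or more in introns for ZC3H7A (background 6.54%) and 4 of 31 for ZC3H7B (background 7.75%). Whether these clusters lay at poison exons or retained introns was not analysed here.

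Few clusters lay in the 5' UTR, but for both proteins more of these genes had one there than the background. The 5' UTR held 29 clusters for ZC3H7A, 4.76% (3.21 to 6.77%), an interval that covers the 3.61% of all genes. For ZC3H7B it held 16, 2.14% (1.23 to 3.46%) beside 0.772%. Because genes with many clusters are more likely to have one there, the count was also taken over genes with at least 10 clusters. For ZC3H7A 17 of 27 such genes had a 5' UTR cluster (background 36.9%), and for ZC3H7B 13 of 31 (background 10.7%). HNRNPAB, HNRNPF and TRA2A had 3 each for ZC3H7A, and HNRNPA2B1, TRA2A and TRA2B 2 each for ZC3H7B. Of the 34 genes with at least 3 clusters in both, 19 had a larger 5' UTR share for ZC3H7A (background 23.2%) and 3 for ZC3H7B (background 4.47%). Of the 26 with at least 10, 16 had a larger 5' UTR share for ZC3H7A (background 34.8%) and 3 for ZC3H7B (background 6.21%).

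Start and stop codons also held few clusters of these genes, but for ZC3H7B more of the genes had one there than the background. At the start codon there were 7 for ZC3H7A (1.15%) and 11 for ZC3H7B (1.47%), beside 1.43% and 0.645% over all genes. Among genes with at least 10 clusters, 7 of 27 had one for ZC3H7A (background 21.5%) and 10 of 31 for ZC3H7B (background 12.8%). At the stop codon there were 8 (1.31%) and 19 (2.55%), beside 1.46% and 1.85% over all genes. Of the genes with at least 10 clusters, 7 of 27 (background 22.1%) and 17 of 31 (background 33.1%) had one. HNRNPK had 2 at the stop codon in each library, and SON 0 and 2.

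Clusters in no named region made up 4.93% for ZC3H7A and 6.57% for ZC3H7B, beside 4.87% and 5.21% over all genes. HNRNPR had 5 of 20 and 6 of 24 of them, HNRNPA2B1 6 of 21 and 4 of 28, HNRNPU 2 of 36 and 6 of 42, and SRSF5 3 of 8 and 4 of 8. For these clusters the region is unknown, and the region shares of these genes are incomplete to that extent.

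T-to-C conversion, the mark of the crosslink, was high on most of these genes. The value given for a gene is the fraction of converted reads in its median cluster. For ZC3H7A the median over the genes was 0.99, beside 1.00 for all genes, and for ZC3H7B 0.91, beside 0.94. Over genes with at least 10 clusters the medians were 0.99 beside 1.00 for ZC3H7A and 0.91 beside 0.92 for ZC3H7B. A value below that of the median gene was found on 22 of 37 genes for ZC3H7A (background 26.1%) and on 29 of 38 for ZC3H7B (background 49.6%). These backgrounds are over all genes, also those with few clusters. Among genes with at least 10 clusters 12 of 27 stood at 1.00 for ZC3H7A (background 69.6%). For ZC3H7B 1 of 31 such genes did (background 19.3%). The lowest values for ZC3H7A were 0.60 on SRSF12, with 2 clusters, 0.65 on SRSF3, with 3 clusters, and 0.81 on SRSF9, with 4 clusters. For ZC3H7B they were 0.79 on SRSF10, with 1 cluster, 0.82 on HNRNPUL2 and 0.85 on PTBP1. HNRNPA2B1 stood at 0.92 and 0.93, HNRNPU at 0.99 and 0.90, SON at 1.00 and 0.89, and SRSF1 at 0.93 and 0.90. Whether the number of distinct reads had a part in these values was not tested.

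Other regulators of splicing, from a list of 35 kinases, importers and RNA-binding proteins chosen by name, were read for comparison. Of these, 33 were listed in both tables, and the kinase genes CLK2 and CLK3 in neither. Their median log2 ratio was -0.29, with 9 of 33 higher for ZC3H7A (background 18.0%), 3 for ZC3H7B (background 18.2%) and 21 neither. U2AF2, which binds the polypyrimidine tract, had the lowest ratio at -3.68 (-4.02 to -3.36), followed by ACIN1 at -2.55 and the poly(C)-binding gene PCBP1 at -2.02. RBFOX2, a regulator of exons through GCAUG motifs, had the highest at 2.19 (2.04 to 2.33), followed by CELF1 at 1.77, RALY, with 22 and 44 reads, at 1.49 (0.72 to 2.30), and the SR protein kinase SRPK2 at 1.40. SYNCRIP, the hnRNP Q gene and closest relative of HNRNPR, held 12821 and 4738 reads at -0.94 (-0.99 to -0.90). Coding sequence held 44.9% (40.5 to 49.4%) and 26.8% (23.7 to 30.0%) of the clusters on the list, beside 42.7% and 29.6% over all genes. No test of a difference between this list and the hnRNP and SR genes was run.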

How the data were processed

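The members and lists were chosen with earlier results of these data known. Reads were processed on build hg19 with STAR 2.5.2a, Bowtie and cutadapt, per the submitters' processing notes; the cluster caller is not given in the sources used here. Per the file headers, the deposited counts are clusters, reads and distinct reads in clusters, and clusters per region, 1 row per gene. The deposited fraction is the median T-to-C fraction over clusters. A deposited log10 conversion specificity and the deposited score columns (sums and medians over clusters) were not compared, except the sum of T-to-C fractions, used for its mean.

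Rows naming repeats, tRNAs or other RNA classes were left out (282 of 8486 and 407 of 9566 rows). The exon column was read as coding sequence, since single clusters lay there exactly when their class was coding. Log2 ratios used genes listed in both tables with at least 20 reads summed, scaled to the median gene. With 1 library per protein no test or p-value was computed. The ratio step was tested on simulated reads without PCR copies, so it does not cover intervals for copied reads. Of genes set 4-fold higher for ZC3H7B 98 of 100 were called, and of those set 4-fold lower 75 of 98. Of 6950 unchanged genes 0 were called. Alternatives were distinct reads, clusters, mean reads per cluster, TMM or total scaling, other minimums and denominators, and leaving out genes with named copies or the leading gene. All 38 symbols matched RefSeq (GRCh38.p14), used for names only. No sequence is printed, since none of a cluster was used here. Genes named in full were the 12 with the most reads, the 4 highest and 4 lowest ratios with at least 100 reads summed, genes with at least 5 intron clusters, the largest coding shift each way with at least 10 clusters in both, and genes in a single table; the rest are given in brief. Python 3.11.15, pandas 2.3.3, numpy 2.4.6, scipy 1.17.1, matplotlib 3.10.9, and edgeR 4.0.16 in R 4.3.3 for TMM scaling only.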

Additional observations from a re-analysis of the deposited data

How the results depend on the processing

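No paired analysis was possible because there was 1 library per protein. The count of genes higher in the ZC3H7A library was 10 (8 to 10 with distinct reads, TMM, total scaling or another minimum of reads), but 5 with mean reads per cluster, 0 with clusters and 2 of 14 without the 24 genes that have a copy of the same name. The count for ZC3H7B was 1, but 6 with mean reads per cluster, 2 with scaling to total reads, which moved every ratio by 0.16, 0 with clusters and 0 without the copied genes. HNRNPC turned to 0.17 with clusters, HNRNPL to 0.050 and SRSF3 to -1.53 with mean reads per cluster; the first divides clusters and the others divide reads by clusters. Counting every gene, 12 of 37 changed sign with clusters and 11 with mean reads per cluster, 3 and 7 of them with both intervals off 0. Intervals with mean reads per cluster leave out the counting error of clusters. SON went from 0.76 to -0.85 (-1.33 to -0.37) and SRSF1 from 0.16 to -1.84 (-2.78 to -0.95) with clusters, and HNRNPA0 from -0.62 to 0.79 (0.70 to 0.86) with mean reads per cluster. With distinct reads 5 changed sign, of which SRSF1 (-0.39) and ARGLU1 (-0.26) had both intervals off 0. The median ratio was negative under all 8 alternatives (-0.66 to -0.0019), but -0.0019, with mean reads per cluster, is hardly below 0. It is the value of HNRNPA1L2, with an interval of -1.15 to 1.11. With that measure 5 genes were higher for ZC3H7A and 6 for ZC3H7B. The read share of the genes was 2.19% and 1.52% with distinct reads, 1.18% and 0.747% with clusters, 1.93% and 1.48% without the leading gene, and 2.54% and 1.75% of all rows. As a median over genes with at least 3 and 10 clusters, the coding share was 46.1% and 45.5% for ZC3H7A and 31.2% and 30.4% for ZC3H7B, the intron share 0 in all 4 cases, and the 3' UTR share for ZC3H7A 27.6% at 3. Without SON the ZC3H7B shares were 47.8% (3' UTR) and 5.99% (intron). With the mean over clusters the T-to-C fraction was 0.918 and 0.899. The coding share was larger for ZC3H7A under every alternative run, and the difference within genes stayed between -15.0 and -12.1 points.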

Other observations

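PTBP3, a paralog of PTBP1 that the choice by name left out, held 445 reads in 9 clusters for ZC3H7A and 325 reads in 20 clusters for ZC3H7B. HNRNPU-AS1, which lies antisense to HNRNPU, held 61 reads in 3 clusters and 42 reads in 5 clusters, few beside the 9313 and 1989 reads of HNRNPU; the strand setting of the counting is not given in the sources used here. Rows named as pseudogenes of these genes numbered 11 for ZC3H7A and 6 for ZC3H7B, with 1079 and 197 reads, or 1.10% and 0.459% of the reads of the genes themselves. HNRNPKP1 held 28.0% and 30.5% as many reads as HNRNPK, and HNRNPDP1 held 227 reads for ZC3H7A, 14.0% as many as HNRNPD.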
